A study of Mus musculus with 17 samples.

Results

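The Hox genes are the homeobox transcription factor genes of the clusters A, B, C and D, and they were taken here as every gene whose array annotation gives a single symbol made of Hox, a cluster letter and a position number. The rule found 36 of the 22180 genes measured: 9 in cluster A (positions 2 to 7, 9, 10 and 13), 10 in cluster B (1 to 9 and 13), 9 in cluster C (4 to 6 and 8 to 13) and 8 in cluster D (1, 3 and 8 to 13). Each gene was followed through its probe set with the highest mean. Hoxa11 and Hoxd4 were not analysed here, because no probe set carried their symbol alone.

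The study profiled blood progenitors and lymphoid cells of mice on 17 Affymetrix Mouse Gene 2.0 ST arrays, which measure RNA from whole transcripts with many short probes per gene. Cells of 9 populations were sorted: from bone marrow, HSC (haematopoietic stem cells), LMPP (multipotent progenitors primed for lymphoid fates), flt3+ and flt3- CMP (common myeloid progenitors), CLP (common lymphoid progenitors), EILP (the early innate lymphoid progenitor of the series title) and NK (natural killer) cells, and from thymus, ETP (early thymic progenitors) and DN3 thymocytes. EILP had 1 array and each other population 2. The mice were chimeras: B6 CD45.1 recipients, lethally irradiated with 900 rads, received marrow of TCF-1 GFP reporter donors and were used 12 weeks later. All populations share the reporter and the transplantation, the list of sorted cells in the design text does not name NK cells, and no animal age is given in the sources used here. Cells of several chimeras were pooled, and nothing states that the 2 arrays of a population came from separate pools, and the p-values therefore speak of array-to-array spread, which may be technical.

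Hox genes lie in 4 clusters, in which position along the chromosome follows the order of expression along the body axis of the embryo. Their proteins bind DNA through a homeodomain, often together with Pbx and Meis proteins, which belong to another homeobox family (TALE). In blood, genes of clusters A and B are active in stem and early progenitor cells and are switched down as cells mature. Hoxa9 is needed for normal stem cell and early lymphoid and myeloid function, and with Meis1 it drives leukaemia when kept on. Forced Hoxb4 expands stem cells in culture. Trithorax proteins such as MLL (Kmt2a) keep Hox genes on, and Polycomb proteins keep them off.

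The promoters of 4 of the genes the results turn on are shown: 3 of them lie in 1 cluster and Hoxb4 in another. Each run is 300 bases from RefSeq on mouse build GRCm38.p6, from 250 bases before the annotated start to 50 bases after it, written 5′ to 3′ on the gene's strand, with CpG dinucleotides in capitals. The Hoxa5 run is chr6:52204538-52204837, the Hoxa7 run chr6:52218524-52218823 and the Hoxa9 run chr6:52227321-52227620, all on the minus strand, and the Hoxb4 run is chr11:96318017-96318316 on the plus strand.
Hoxa5: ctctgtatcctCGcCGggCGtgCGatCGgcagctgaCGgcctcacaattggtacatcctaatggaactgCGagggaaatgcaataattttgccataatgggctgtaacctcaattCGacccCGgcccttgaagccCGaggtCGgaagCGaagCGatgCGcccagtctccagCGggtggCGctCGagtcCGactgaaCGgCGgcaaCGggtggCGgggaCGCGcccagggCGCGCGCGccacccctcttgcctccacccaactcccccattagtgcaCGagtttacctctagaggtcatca
Hoxa7: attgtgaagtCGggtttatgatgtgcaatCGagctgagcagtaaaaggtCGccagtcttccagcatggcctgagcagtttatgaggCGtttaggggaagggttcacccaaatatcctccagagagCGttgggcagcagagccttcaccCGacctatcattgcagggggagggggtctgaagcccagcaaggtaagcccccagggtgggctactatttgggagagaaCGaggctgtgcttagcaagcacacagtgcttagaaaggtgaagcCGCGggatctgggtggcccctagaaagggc
Hoxa9: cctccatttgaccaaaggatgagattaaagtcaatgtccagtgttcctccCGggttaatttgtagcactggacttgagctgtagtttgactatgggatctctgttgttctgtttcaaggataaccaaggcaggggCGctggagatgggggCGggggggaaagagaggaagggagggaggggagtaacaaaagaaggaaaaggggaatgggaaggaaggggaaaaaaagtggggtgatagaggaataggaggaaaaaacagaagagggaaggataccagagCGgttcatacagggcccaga
Hoxb4: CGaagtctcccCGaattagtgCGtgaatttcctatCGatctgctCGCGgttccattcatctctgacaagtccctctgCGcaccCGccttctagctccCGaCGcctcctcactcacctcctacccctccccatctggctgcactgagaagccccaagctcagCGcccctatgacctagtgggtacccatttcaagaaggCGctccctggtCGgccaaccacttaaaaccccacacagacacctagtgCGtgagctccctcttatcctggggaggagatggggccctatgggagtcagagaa
The Hoxa5 window held 29 CpGs, the Hoxb4 window 14, the Hoxa7 window 9 and the Hoxa9 window 4, against a median of 7 over 32851 RefSeq promoters of the same length. Promoters were matched for 20 of the 36 members, which gave 22 windows with a median of 17 CpGs. The CCAAT motif, searched on both strands, was in 63.6% of the 22 windows and in 37.4% of all promoters. It occurred once (1 site) in the Hoxa5 window and not in the Hoxa7, Hoxa9 and Hoxb4 windows. TATAAA, also searched on both strands, was in 13.6% of the Hox windows and 13.6% of all promoters. These matches describe the letters of the windows only.

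Before the comparisons, the arrays were set against their labels. The 4 HSC markers were highest in HSC, the 5 NK markers in NK and 4 of the 5 DN3 markers (Ptcra, Il2ra, Cd3e and Bcl11b) in DN3. The other populations stood out in fewer of their markers: 1 of 3 was highest in LMPP (Flt3), 1 of 5 in CLP (Ebf1), 2 of 5 in EILP (Zbtb16 and Nfil3), 1 of 5 in ETP (Kit), 3 of 4 in flt3- CMP (Mpo, Elane and Cebpa) and 0 of the same 4 in flt3+ CMP. The CLP markers Il7r, Rag2 and Dntt, the EILP markers Tox and Gata3 and the ETP markers Notch1, Hes1 and Gata3 were highest in DN3. The CLP, EILP and DN3 arrays stood apart from the rest in genes of the sex chromosomes: the Y-linked gene Eif2s3y measured 7.80 to 8.74 (log2) on those 5 arrays and 3.13 to 3.63 on the other 12, and Xist measured 7.13 to 9.44 against 11.24 to 11.81. This split and the populations cannot be told apart in any comparison that crosses it. The mean of 5 neutrophil marker genes was 10.31 to 11.96 on the marrow arrays, with CLP at 11.78 to 11.90 and EILP at 11.96, and 4.13 to 5.56 on the thymus arrays. The red cell gene Rhag, the 1 of 3 listed red cell markers that was measured, was at 5.61 to 6.02 in LMPP, 8.21 to 8.23 in CLP, 8.43 in EILP and 3.94 to 4.87 on the thymus arrays. Means over 8 stromal markers stayed between 3.95 and 4.49 on all arrays, and those over endothelial markers between 4.71 and 5.22. Among the 8, Pdgfrb measured 8.41 and 7.75 in ETP, 6.59 and 6.25 in DN3 and 4.62 to 6.72 on the marrow arrays. Its part in the results below was not tested. In bulk RNA, fewer cells of a type and less RNA per cell cannot be told apart.

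All levels below are the deposited log2 values, so a difference of 1 is a 2-fold change, and levels of different genes come from different probes and are not set against each other. Differences were tested with limma, with 1 mean per population, and p-values were adjusted over all 22180 genes (Benjamini-Hochberg). A gene was called at an adjusted p under 0.05.

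Across the 9 populations, 7 of the 36 Hox genes differed by limma's F test: Hoxa3, Hoxa5, Hoxa6, Hoxa7 and Hoxa9 of cluster A, and Hoxb4 and Hoxb6 of cluster B. That is 19.4% of the Hox genes, and 22.7% of all genes were called, so the share over the whole family was near the background. With dim genes left out, 5 of the 7 Hox genes kept were called, beside 41.8% of all genes kept. The called genes made up 5 of the 9 members of cluster A, 2 of 10 in B, 0 of 9 in C and 0 of 8 in D. At an unadjusted p under 0.05 these counts were 6, 2, 0 and 0, in all 8 of 36 beside 34.3% of all genes. The added gene was Hoxa2, which patterns the hindbrain and the second branchial arch. By position, the calls were 1 of the 7 genes at positions 1 to 3, 5 of 14 at positions 4 to 8 and 1 of 15 at positions 9 to 13. The span between the highest and the lowest population mean had a median of 1.27 in cluster A, 0.44 in B, 0.31 in C and 0.30 in D, beside 0.63 over all genes. The spans of the cluster C genes, which pattern the trunk and hind body, ran from 0.26 to 0.52, and those of cluster D, which shape limbs and digits, from 0.22 to 0.43. The 29 genes that were not called ranged from 2.57 to 5.36 over all their arrays. Of these, 27 had a mean under 4.54, the median of all values, as did 2 of the 7 called genes (Hoxa3 and Hoxb6). A narrow span at such low values cannot be read as steady expression.

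**Figure D1:**
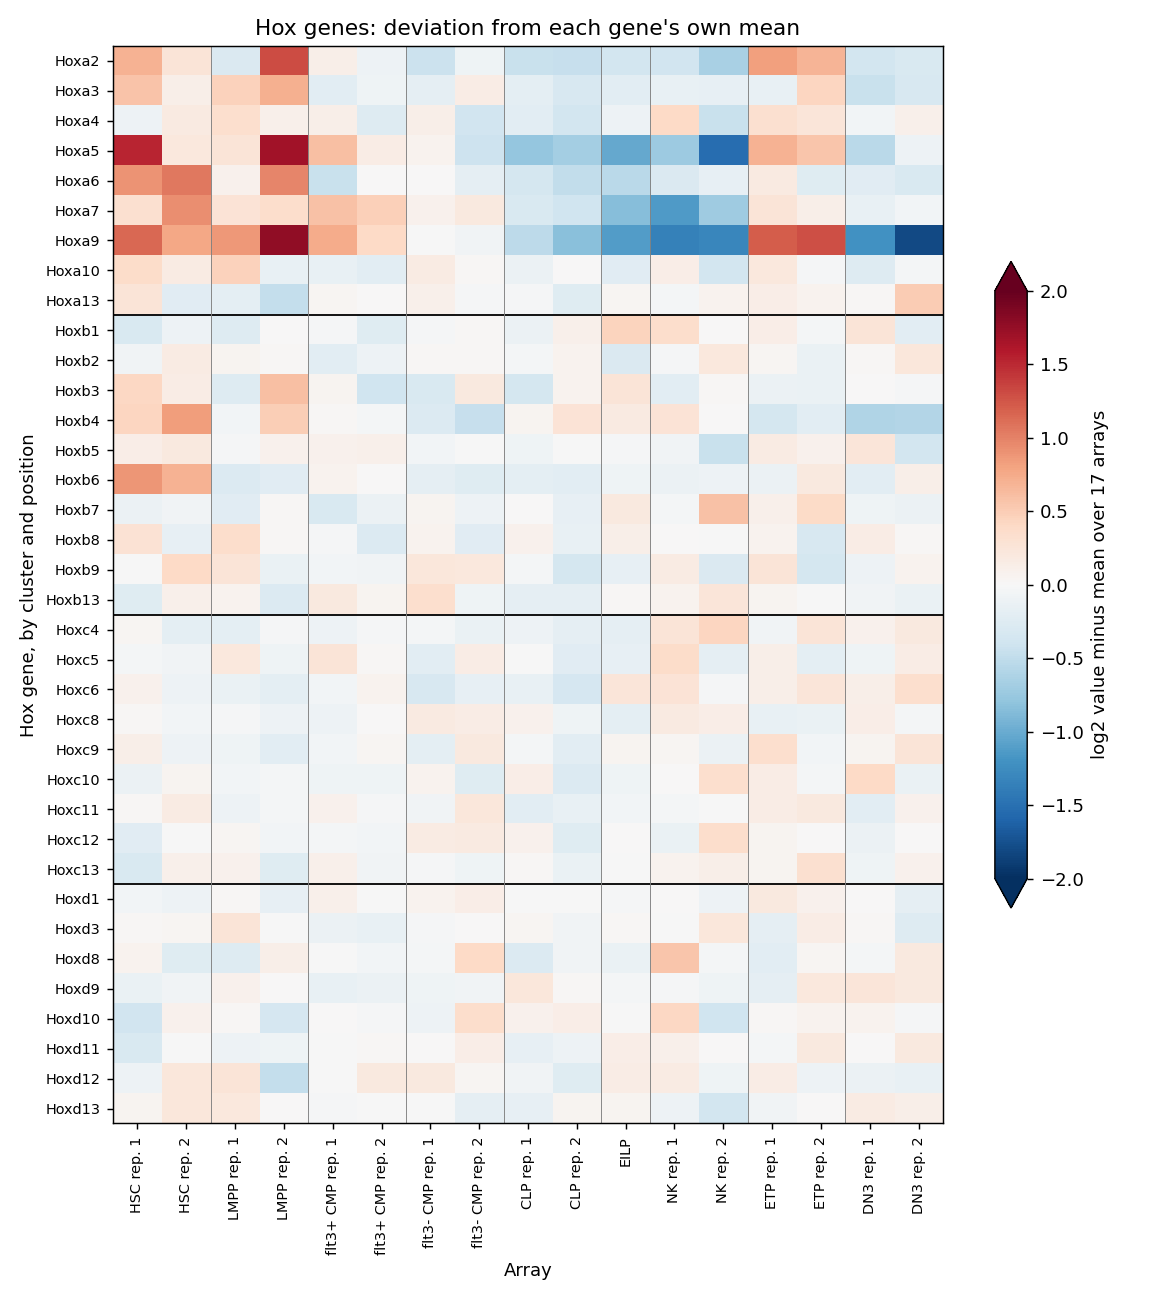
Level of each of the 36 Hox genes on each of the 17 arrays, as the log2 value minus that gene's mean over the arrays, with genes ordered by cluster and position and arrays by population. Colour departs most from the gene's own mean in the rows of Hoxa2, Hoxa5, Hoxa6, Hoxa7, Hoxa9, Hoxb4 and Hoxb6, and the cluster C and D rows stay near it, with spans of population means up to 0.52 and 0.43.

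Hoxa9 had the widest span of all members, 2.82, with an adjusted p of 7.5e-06 in limma's F test. It measured 6.63 and 6.25 in HSC, 6.34 and 7.25 in LMPP, 6.23 and 5.88 in flt3+ CMP and 5.48 and 5.42 in flt3- CMP. In the lymphoid populations of the marrow it measured 4.96 and 4.64 in CLP, 4.35 on the EILP array, and 4.13 and 4.17 in NK cells. In the thymus it measured 6.69 and 6.77 in ETP and 4.27 and 3.68 in DN3. The ETP arrays thus lay within the range of the LMPP arrays and above every CLP, EILP and NK array. By population mean the order was LMPP (6.80), ETP (6.73), HSC (6.44), flt3+ CMP (6.06), flt3- CMP (5.45), CLP (4.80), EILP (4.35), NK (4.15) and DN3 (3.97). The arrays of LMPP and ETP overlapped, as did those of NK and DN3, and the other neighbours in this order did not. Non-overlap of 2 arrays with 2, or with 1, is not a test. The EILP, NK and DN3 arrays all lay under 4.54, the median of all values. Their order, and the fold changes given for them below, therefore rest on low values.

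Hoxa10, the next measured member above Hoxa9 by position number, spanned 0.49 and was not called. Hoxa7, the next measured member below Hoxa9, spanned 1.55 (adjusted p = 0.000464, limma's F test). Its values were 5.73 and 6.34 in HSC, 5.68 and 5.76 in LMPP, 5.99 and 5.89 in flt3+ CMP and 5.49 and 5.61 in flt3- CMP. It stood at 5.10 and 5.01 in CLP, 4.55 in EILP and 4.27 and 4.70 in NK cells, and at 5.66 and 5.53 in ETP and 5.26 and 5.36 in DN3. EILP and NK were the lowest populations, their arrays overlapped, and DN3 lay above all CLP, EILP and NK arrays. A brighter probe set, listed under both Mira and Hoxa7 and outside the rule, measured 8.22 and 8.55 in LMPP and 5.92 and 6.27 in CLP. It measured 8.53 and 8.72 in ETP and 7.44 and 7.40 in DN3, and was picked after the values were seen. The Hoxa7 differences below are those of the probe set with its symbol alone.

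Hoxa5, which patterns the lung and axial skeleton, spanned 2.09 (adjusted p = 0.0171, limma's F test). It read 6.11 and 4.80 in HSC, 4.85 and 6.27 in LMPP, 5.20 and 4.75 in flt3+ CMP and 4.66 and 4.18 in flt3- CMP. It read 3.82 and 3.91 in CLP, 3.56 in EILP, 3.87 and 3.07 in NK cells, 5.28 and 5.15 in ETP and 4.05 and 4.50 in DN3. The 2 HSC arrays and the 2 LMPP arrays were each more than 1 log2 unit apart; among the 288 pairs of replicate values of all members only 3 were, the third being Hoxa2 in LMPP. The median distance between replicates was 0.18 for the Hox genes and 0.19 for all genes.

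Hoxa6 spanned 1.51 (adjusted p = 0.00856, limma's F test) and was highest in HSC, at 6.17 and 6.32. It measured 5.35 and 6.24 in LMPP, 4.82 and 5.27 in flt3+ CMP, 5.26 and 5.09 in flt3- CMP, 4.92 and 4.77 in CLP and 4.73 in EILP. It measured 4.98 and 5.10 in NK cells, 5.45 and 5.03 in ETP and 5.03 and 4.96 in DN3. In the order of means from HSC down to DN3 each pair of neighbours overlapped. The CLP arrays lay below those of DN3, the next population above, and overlapped those of flt3+ CMP, and the EILP array lay below all others.

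Hoxa3, which is needed to form the thymus rudiment, spanned 0.97 (adjusted p = 0.0385, limma's F test). Its arrays read 4.69 and 4.25 in HSC, 4.59 and 4.83 in LMPP, 3.91 and 4.04 in flt3+ CMP, 3.95 and 4.27 in flt3- CMP, 3.93 and 3.80 in CLP and 3.91 in EILP. They read 3.98 and 3.96 in NK cells, 3.98 and 4.55 in ETP and 3.68 and 3.81 in DN3. LMPP was above every flt3+ CMP, flt3- CMP, CLP, EILP, NK, ETP and DN3 array and overlapped HSC. The RefSeq span of Hoxa3 encloses Hoxa4, Hoxa5 and Hoxa6, so a transcript of one of these genes may be hard to separate from the others.

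Hoxb4 had another order than the cluster A genes. It measured 6.05 and 6.46 in HSC, 5.56 and 6.10 in LMPP, 5.64 and 5.58 in flt3+ CMP, 5.34 and 5.15 in flt3- CMP, 5.67 and 5.89 in CLP and 5.79 in EILP. It measured 5.88 and 5.62 in NK cells, 5.26 and 5.41 in ETP and 5.01 and 5.03 in DN3. CLP, EILP and NK arrays lay within the LMPP range, and DN3 was the lowest population, below all other arrays. Its span was 1.23 (adjusted p = 0.00889, limma's F test). Hoxb3 encloses Hoxb4 in RefSeq, and Hoxb3 itself was not called.

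Hoxb6, a cluster B gene of the trunk region, stood out in HSC alone by its array values. It measured 4.26 and 4.07 there and 3.11 to 3.57 on the 15 other arrays, with a span of 1.03 (adjusted p = 0.00523, limma's F test). No array of another population reached the lower HSC array.

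**Figure D2:**
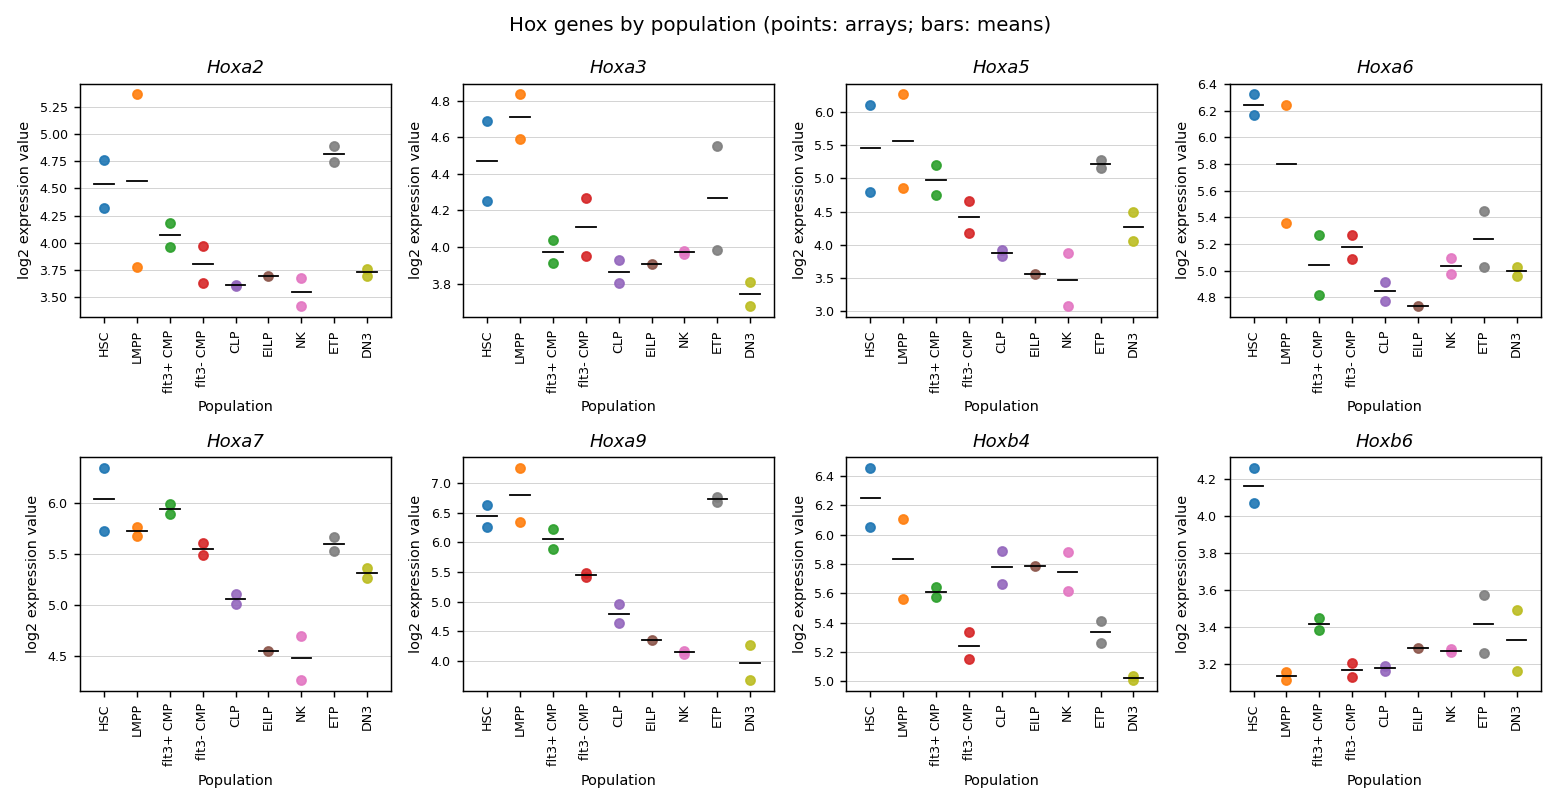
Deposited log2 level of Hoxa2 and the 7 Hox genes that differed among the populations, 1 panel per gene with its own axis, with 1 point per array and a bar at the population mean. The mean of Hoxa9 is 6.80 in LMPP, 6.73 in ETP and 3.97 in DN3, that of Hoxb4 is 5.75 to 5.83 in LMPP, CLP, EILP and NK, and the arrays of Hoxb6 are at 4.07 and above in HSC and at 3.57 and below elsewhere.

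The first comparisons set stem cells against multipotent and myeloid progenitors. From HSC to LMPP, 1 of 36 Hox genes was called: Hoxb6 fell by 1.03 ± 0.16 (SE, adjusted p = 0.0069), and 0.6% of all genes were called. The call was lost without LMPP replicate 1 (adjusted p = 0.076), LMPP replicate 2 (0.057) or HSC replicate 1 (0.1), with differences of -1.01, -1.05 and -0.94. Hoxa9 differed by 0.36 ± 0.27, with a 95% interval from -0.22 to 0.94. From HSC to flt3- CMP, 3 of 36 were called beside 4.22% of all genes, all lower in flt3- CMP, where 1.82% of all genes were called lower. Hoxa6 fell by 1.07 ± 0.25 (adjusted p = 0.03), Hoxb4 by 1.01 ± 0.20 (0.012) and Hoxb6 by 1.00 ± 0.16 (0.0039), from limma. Hoxa6 lost its call without any 1 of the 4 HSC and flt3- CMP arrays. Hoxb4 lost it without HSC replicate 2, where its difference was -0.81, or without either flt3- CMP array. Hoxa9 differed by -0.99 ± 0.27 (adjusted p = 0.057) and was not called. It was called with dim genes left out (0.04) and in the fit on these 2 populations alone (0.036). The median difference of the 36 Hox genes was -0.01 and that of the 9 cluster A genes -0.48, beside 0.04 for all genes. Rhag was at 6.32 to 6.45 in HSC and 7.86 to 8.05 in flt3- CMP. Neutrophil marker means were 11.16 to 11.22 in HSC and 10.59 to 10.60 in flt3- CMP. The part of these markers in the result was not tested.

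From LMPP to flt3+ CMP, limma called 0 of 36 Hox genes, beside 0.442% of all genes, and 3 had an unadjusted p under 0.05, beside 9.05% of all genes: Hoxa3 at -0.74, Hoxa6 at -0.76 and Hoxa9 at -0.74. Between flt3+ and flt3- CMP, limma called 0 of 36, beside 0.108% of all genes, and 1 had an unadjusted p under 0.05, beside 9.31% of all genes. This was Hoxa9, higher in flt3+ CMP by 0.61 ± 0.27 (adjusted p = 0.51).

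The step from LMPP to CLP had calls in cluster A alone. Here 4 of 36 Hox genes were called, all lower in CLP, beside 5.96% of all genes called and 2.2% called lower. Hoxa9 fell by 1.999 ± 0.27 (adjusted p = 0.00054), a 3.996-fold change, and the CLP arrays lay below both LMPP arrays. Hoxa5 fell by 1.69 ± 0.45 (0.042), Hoxa6 by 0.96 ± 0.25 (0.039) and Hoxa3 by 0.85 ± 0.21 (0.026), and Hoxa7 differed by -0.66 ± 0.20 (adjusted p = 0.07). The median difference in cluster A was -0.85 and over all genes -0.05. Hoxb4 differed by -0.05 ± 0.20, with a 95% interval from -0.48 to 0.37. Hoxa9 was the 1 Hox gene still called without LMPP replicate 2, without CLP replicate 1, without CLP replicate 2 or after quantile normalization, and Hoxa3 and Hoxa9 were the 2 still called after median centring. Without LMPP replicate 2 the differences shrank to -0.98 for Hoxa5 and -0.51 for Hoxa6, so their size rests largely on that array. Without either CLP array Hoxa5 stayed at -1.65 and -1.74 and Hoxa6 at -1.03 and -0.88. LMPP and CLP lie on opposite sides of the split in Eif2s3y and Xist, and neutrophil and Rhag levels were higher in CLP (above). The part of these markers in the result was not tested.

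EILP and CLP were compared with 1 array against 2, and the spread of the EILP array is assumed to be that of the other populations. Limma called 0 of 36 Hox genes, beside 0.365% of all genes, and 1 had an unadjusted p under 0.05, beside 8.64% of all genes. It was Hoxc6, a trunk patterning gene, 0.49 higher in EILP (adjusted p = 0.48). Hoxa9 differed by -0.44 ± 0.33, with a 95% interval from -1.16 to 0.27, and Hoxa7 by -0.51 ± 0.24 (adjusted p = 0.59), so 2-fold lower levels in EILP lie inside both intervals. Against LMPP, EILP had 2 of 36 called beside 3.9% of all genes. Hoxa9 was lower in EILP by 2.44 ± 0.33 (adjusted p = 0.00093), which is 5.44-fold, and Hoxa7 by 1.17 ± 0.24 (0.015). The Hoxa7 call was lost without LMPP replicate 2, with a difference of -1.13 (adjusted p = 0.073). Without LMPP replicate 1, 5 Hox genes were called, the added ones being Hoxa2 (-1.67), Hoxa5 (-2.71) and Hoxa6 (-1.51). EILP and LMPP also lie on opposite sides of the Eif2s3y and Xist split, EILP and CLP on the same side.

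NK cells differed from LMPP in 4 of 36 Hox genes, all lower in NK, beside 6.72% of all genes called and 3.18% called lower. Hoxa9 was lower by 2.65 ± 0.27 (adjusted p = 3e-05), which is 6.27-fold, and Hoxa7 by 1.23 ± 0.20 (0.0015). Hoxa5 was lower by 2.09 ± 0.45 (0.012) and Hoxa3 by 0.74 ± 0.21 (0.049). The Hoxa5 call was lost without LMPP replicate 2 (-1.38) or NK replicate 2 (-1.69), and the Hoxa3 call without any 1 of the 4 arrays. Hoxb4 differed by -0.08 ± 0.20. NK and LMPP arrays lie on the same side of the Eif2s3y and Xist split, and their neutrophil marker means were 11.26 to 11.45 and 11.12 to 11.16. Rhag was higher on the NK arrays, at 7.46 to 7.61 against 5.61 to 6.02 in LMPP, and its part in the result was not tested. The CLP, EILP and NK comparisons share the LMPP arrays, so they are not independent of each other.

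In the thymus, the earliest T cell progenitors were set against LMPP and DN3 cells against ETP. Between ETP and LMPP, limma called 0 of 36 Hox genes, beside 3.42% of all genes, and 3 had an unadjusted p under 0.05 (Hoxa6, Hoxa13 and Hoxb4), beside 14.4% of all genes. Hoxa9 differed by -0.07 ± 0.27, with a 95% interval from -0.65 to 0.51 in the fit on all arrays. That interval leaves out a 2-fold difference, but it rests on the mean of LMPP arrays at 6.34 and 7.25. Neutrophil marker means were 11.12 to 11.16 in LMPP and 5.04 to 5.56 in ETP, and their part was not tested. Hoxb4 differed by -0.50 ± 0.20 (adjusted p = 0.26). Without LMPP replicate 1, Hoxa6 was called (-1.01, adjusted p = 0.048), and without LMPP replicate 2, Hoxa2 was (1.04, 0.037). From ETP to DN3, Hoxa9 was the 1 of 36 Hox genes called, beside 8.73% of all genes. It fell by 2.75 ± 0.27 (adjusted p = 1.8e-05), a 6.74-fold change. This was the largest difference among the probe sets chosen for the 36 Hox genes in the comparisons made. Probe sets with several symbols were not compared. Hoxa7 differed by -0.28 ± 0.20, with a 95% interval from -0.71 to 0.14, and Hoxa5 by -0.95 ± 0.45 (adjusted p = 0.26). Without ETP replicate 1, Hoxa3 was called as well (-0.81, adjusted p = 0.038). ETP and DN3 lie on opposite sides of the Eif2s3y and Xist split, and of 4 thymic epithelium markers Epcam differed (means of 3.75 in ETP and 6.28 in DN3). Foxn1 was at 3.90 and 4.03, Psmb11 at 3.60 and 3.70 and Krt8 at 5.48 and 5.34. The part of the split and of Epcam was not tested.

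A pair of comparisons was added after the values had been seen, setting ETP against CLP and EILP. Against CLP, 2 of 36 Hox genes were called, both higher in ETP, beside 13.1% of all genes called and 5.42% called higher. Hoxa9 was higher by 1.93 ± 0.27 (adjusted p = 0.00024), and Hoxa2 by 1.20 ± 0.36 (adjusted p = 0.04). Hoxa2 measured 4.89 and 4.74 in ETP and 3.62 and 3.60 in CLP, and lost its call without any 1 of these 4 arrays, after median centring and after quantile normalization (1.09 under both). The median over all genes was 0.12 in this comparison, and the Hoxa9 difference was 1.82 after each array was centred on its median. Hoxa5 differed by 1.35 ± 0.45 (adjusted p = 0.067), and was called with dim genes left out (0.04) and in the fit on the 2 populations alone (0.0067). Against ETP, EILP had 2 of 36 called beside 8.19% of all genes, with Hoxa9 lower by 2.37 ± 0.33 (adjusted p = 0.00038) and Hoxa7 by 1.04 ± 0.24 (0.015). Without ETP replicate 1, Hoxa7 was at -0.98 (adjusted p = 0.052). Both comparisons cross the Eif2s3y and Xist split and the divide in neutrophil markers between marrow and thymus, whose part was not tested.

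**Figure D3:**
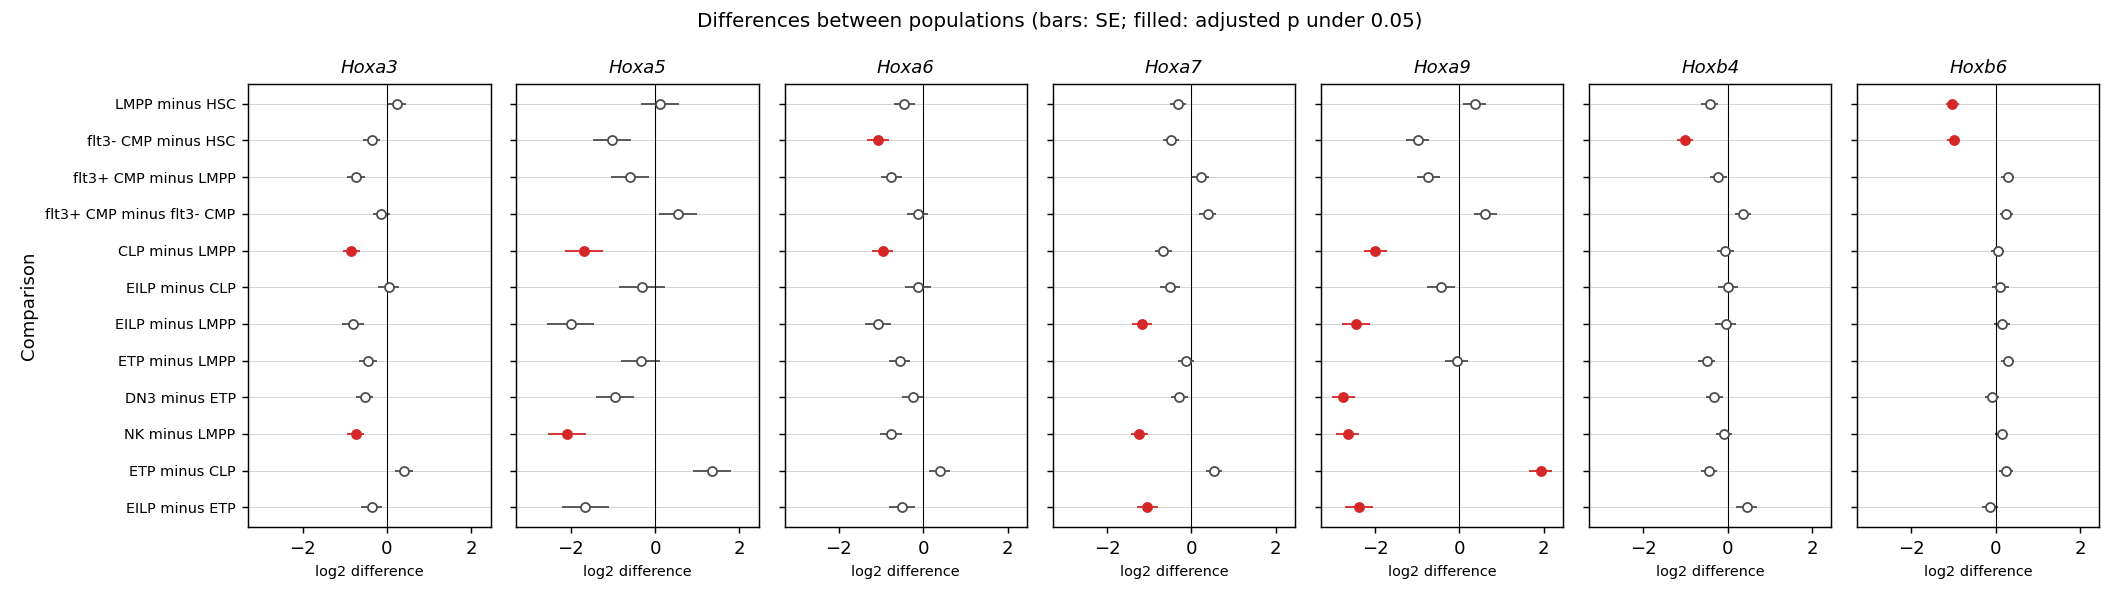
Log2 difference with its standard error for the 7 Hox genes in each comparison, the first population minus the second, with filled red points where the adjusted p was under 0.05. Hoxa9 lies at -1.999 to -2.75 wherever it was called among the planned comparisons and at -0.07 between ETP and LMPP, and Hoxb4 lies at -0.05 to -0.08 for CLP, EILP and NK against LMPP.

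Among the called members, Pearson's r over the 17 arrays was 0.85 between Hoxa5 and Hoxa9, 0.763 between Hoxa3 and Hoxa9, 0.743 between Hoxa7 and Hoxa9 and 0.322 between Hoxa9 and Hoxb4. The arrays share populations, so these values describe likeness only. The genes outside the family most like Hoxa9 were P2ry14 (r = 0.9496), a receptor for UDP-sugars, Calcrl (0.9243), a receptor for calcitonin-family peptides, and Layn (0.8957), a hyaluronan receptor. Those most like Hoxb4 were Trim30d (0.9061), Rab11a (0.8447), a recycling endosome GTPase, and Ppp3ca (0.8269), a catalytic subunit of calcineurin.

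The TALE partners of Hox proteins were measured for 8 of 9 listed genes, and 3 differed among the populations (Meis1, Pbx3 and Pbx4), beside 22.7% of all genes, the share that stands beside each such count of a list below. Meis1 measured 10.11 and 9.92 in HSC, 9.04 and 9.34 in LMPP, 7.66 and 7.82 in flt3+ CMP, 7.86 and 7.72 in flt3- CMP, 6.10 and 5.77 in CLP and 6.06 in EILP. It measured 5.20 and 5.14 in NK cells, 6.71 and 6.97 in ETP and 4.005 and 4.46 in DN3. Its ETP arrays lay below all HSC, LMPP and CMP arrays, where those of Hoxa9 lay above HSC. From LMPP, Meis1 was lower by 3.26 ± 0.19 in CLP (adjusted p = 4.5e-07), 3.13 ± 0.23 in EILP (1.5e-05), 4.02 ± 0.19 in NK cells (1.3e-08) and 2.35 ± 0.19 in ETP (5.6e-06). It fell by a further 2.60 ± 0.19 from ETP to DN3 (1.1e-06). Pbx4 fell by 0.76 from LMPP to CLP (0.0094) and was lower by 0.66 in NK cells (0.02), and Pbx3 was higher in NK cells than in LMPP by 0.76 (0.012).

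Of 15 listed activators of Hox genes (the MLL complex and its partners, the H3K27 demethylases Kdm6a and Kdm6b, and Cdx factors), all 15 were measured and 5 differed among the populations. From LMPP to CLP the 2 called genes fell, where 5.96% of all genes were called and 2.2% were called lower. Aff4, a scaffold of the super elongation complex, fell by 0.78 and Kdm6a by 1.10. In ETP against CLP 4 were higher and 1 was lower, beside 5.42% and 7.64% of all genes. The higher ones were Kmt2a by 0.78, Mllt10 by 0.69, Aff4 by 1.15 and Kdm6a by 1.13, and Mllt3 was lower by 0.93. Kdm6a, which is X-linked, read 7.25 to 7.86 on the CLP, EILP and DN3 arrays and 7.95 to 9.04 on the other 12, along the Eif2s3y and Xist split. From ETP to DN3, where 8.73% of all genes were called, the 2 called genes rose, Mllt3 by 1.68 and Aff1 by 0.79. Of 17 Polycomb genes, 15 were measured and 1 differed among the populations (Phc3). From ETP to DN3 the 2 called genes rose, Suz12 by 0.73 and Phc3 by 1.20, and, set against CLP, ETP had Ezh1 higher by 0.98, Ezh2 lower by 0.58 and Suz12 lower by 0.67.

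Of 28 RNA genes and neighbours inside or beside the clusters, 18 were measured and 5 differed among the populations (Skap2, Hibadh, Skap1, Cbx5 and Lnpk). Skap2, an adaptor protein gene beside cluster A, had another order than the cluster A genes. It measured 8.39 and 8.65 in LMPP, 8.78 and 8.86 in CLP, 8.84 in EILP, 7.999 and 7.992 in NK cells, 7.45 and 7.26 in ETP and 5.29 and 4.80 in DN3. It was lower in ETP than in LMPP by 1.16 ± 0.18 (adjusted p = 0.0015) and fell by 2.31 ± 0.18 from ETP to DN3 (1.6e-06). Skap1, a T cell adaptor gene beside cluster B, rose by 3.53 ± 0.20 from ETP to DN3 (adjusted p = 1.6e-07) and was higher in NK cells than in LMPP by 3.59 ± 0.20 (8.6e-08). Of 10 other homeobox genes of blood cells, 8 were measured and 4 differed among the populations. Hhex, a repressor active in early progenitors, fell by 2.63 ± 0.25 from ETP to DN3 (1.2e-05), and Satb1, a chromatin organiser of lymphoid cells, rose by 2.20 ± 0.16 from HSC to LMPP (1.5e-05), all from limma.

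**Figure D4:**
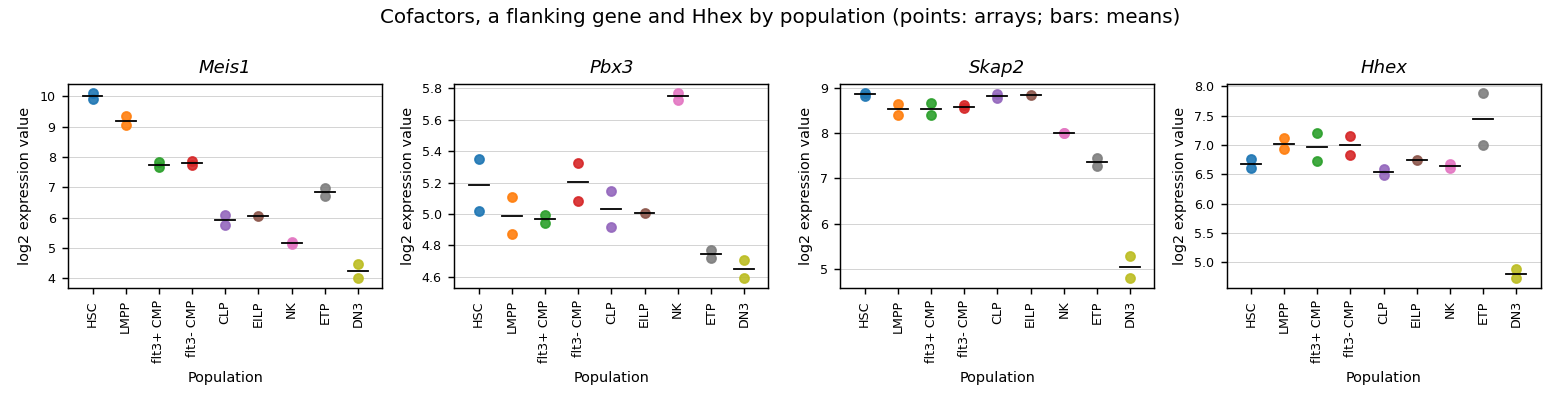
Deposited log2 level of Meis1 and Pbx3, partners of Hox proteins, of Skap2, which lies beside cluster A, and of the homeobox gene Hhex, 1 panel per gene with its own axis, with 1 point per array and a bar at the population mean. Meis1 is highest in HSC at 10.11 and 9.92, Pbx3 is highest in NK cells at 5.77 and 5.73, and Skap2 and Hhex are lowest in DN3, at 5.29 and 4.80 and at 4.73 and 4.89.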

How the data were processed

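Total RNA of sorted pools was amplified, labelled with biotin and hybridised to Affymetrix Mouse Gene 2.0 ST arrays, per the labels' protocols. The authors deposited 1 log2 value per probe set and array, and the submitters' processing notes name Affymetrix Expression Console. For its version, summary algorithm, normalization and genome build, the entry is: not given in the sources used here. Array medians lay between 4.45 and 4.62. Precision is set by how few arrays there were.

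Of 41345 probe sets, 23521 had 1 gene symbol in the platform annotation, 1814 had several and 16010 had none. The probe set with the highest mean stood for each of 22180 genes. The functions lmFit and eBayes of limma 3.58.1 (R 4.3.3) were run with 1 mean per population, giving 8 residual and 5.33 prior degrees of freedom. The script was tested on simulated data. Values in every array are given for Hox genes that passed the F test with a span of at least 1 or were called in 1 of 10 comparisons; Hoxa2 was added after its values were seen. The Hox members, gene lists and comparisons were chosen with earlier results of these data known. The alternatives tried were median centring, quantile normalization, a filter on dim genes, the mean over a gene's probe sets, fits on 2 populations, a replicate block and leaving out arrays.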

Additional observations from a re-analysis of the deposited data

How the results depend on the processing

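The 6 calls of Hoxa9 held their direction and side of the threshold in all 54 alternative fits that covered them, with a highest adjusted p of 0.03 (limma). No member's called difference changed sign in any alternative. Calls gained with dim genes left out were Hoxa9 from HSC to flt3- CMP, Hoxa5 for EILP against LMPP (adjusted p = 0.037) and Hoxa5 for ETP against CLP. Those gained in fits on 2 populations were Hoxa9 from HSC to flt3- CMP, Hoxa2 from ETP to DN3 (0.022), and Hoxa5 for ETP against CLP and for EILP against ETP (0.017). Over the calls of all single genes, 127 alternative fits kept the call, the 54 of Hoxa9 among them. Another 46, none of them of Hoxa9, kept the direction and lost the threshold. Counts of called Hox genes moved by over 1.5 times as follows. After median centring, LMPP to CLP had 2 and ETP against CLP 1, beside 6.53% and 12.9% of all genes. After quantile normalization both had 1, beside 5.6% and 13% of all genes. With dim genes left out, which kept 7 of the 36 members and left out Hoxb6, HSC to LMPP had 0, beside 0.848% of all genes kept. In fits on the 2 populations alone, which have fewer arrays to estimate the spread, HSC to LMPP had 0, LMPP to CLP 2, NK against LMPP 2 and ETP to DN3 2. The same fits called 0.131% of all genes from HSC to LMPP, 5.01% from LMPP to CLP, 3.12% in NK against LMPP and 4.88% from ETP to DN3. In the main fit these shares were 0.6%, 5.96%, 6.72% and 8.73%.

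Leaving out each array in turn gave 5 to 7 Hox genes in the F test, 0 to 1 for HSC to LMPP, 1 to 2 for HSC to flt3- CMP, 1 to 4 for LMPP to CLP, 1 to 5 for EILP against LMPP and 0 to 1 for ETP against LMPP. It gave 1 to 2 for ETP to DN3, 2 to 5 for NK against LMPP, 1 in each fit for ETP against CLP and 1 to 2 for EILP against ETP. The share of all genes called also fell: it was 1.02% to 1.88% from HSC to flt3- CMP (4.22% with all arrays), 2.87% to 3.38% from LMPP to CLP (5.96%) and 2.15% to 2.68% for EILP against LMPP (3.9%). The lone array then left is assumed to vary like the other populations, so these counts show only how far calls hang on single arrays. The cause of these changes was not tested.

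Arrays with the same replicate number showed little shared deviation. Over 28 pairs of populations the correlation of same-numbered deviations ran from -0.0737 to 0.0892, and 0 were over 0.1. Such low values cannot show whether same-numbered arrays shared a pool, batch or day. With the replicate number as a block and EILP left out, the F test called 7 Hox genes, beside 22.6% of all genes. LMPP to CLP had 4 (6.1% of all genes), HSC to flt3- CMP 3 (4.22%) and HSC to LMPP 1 (0.573%). ETP to DN3 had 1 (8.8%), ETP against CLP 2 (13.3%) and NK against LMPP 3 (6.84%). In the NK comparison Hoxa3 was at -0.74 (adjusted p = 0.051, limma). EILP carries no replicate number, so its comparisons had no blocked fit.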

Other observations

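Outside the rule, 7 probe sets carried a Hox symbol together with another symbol, and they are given as values with no gene assigned; the pair described here was chosen after the values were seen. The probe set listed under both Mira and Hoxa7 measured 8.68 and 8.59 in HSC, 8.22 and 8.55 in LMPP, 8.19 and 8.04 in flt3+ CMP and 7.79 and 7.63 in flt3- CMP. It measured 5.92 and 6.27 in CLP, 6.33 in EILP, 5.54 and 4.97 in NK cells, 8.53 and 8.72 in ETP and 7.44 and 7.40 in DN3. Its CLP, EILP and NK arrays lay below all others, and its DN3 arrays lay between those and the HSC, LMPP, flt3+ CMP, flt3- CMP and ETP arrays. The probe set listed under both Hoxb3 and Hoxb2 measured 5.32 and 5.92 in HSC, 5.53 and 5.21 in LMPP and 4.59 to 5.03 on the other 13 arrays.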
